A study of Arabidopsis thaliana with 24 samples.

Results

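Proteins of the cytosolic ribosome of Arabidopsis thaliana are encoded by families of near-equivalent paralogs, and 44 of these genes in 21 families were followed here among 25960 genes measured. They were chosen by name and not by value: genes listed as RPL (large, 60S subunit), RPS (small, 40S subunit) or RPP (the stalk of the 60S subunit), matched on the locus identifier. Of the 44, 22 encode 60S proteins, 16 encode 40S proteins and 6 encode the stalk proteins P0 and P1. In 18 families 2 or 3 paralogs are listed, 41 genes in all, and the other 3 families have 1 listed gene each. Genes without a symbol in the RefSeq annotation are called by their locus identifier.

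The libraries are poly(A)-selected, strand-marked RNA-seq of hypocotyl explants, pieces about 10 mm long cut from seedlings of the Columbia (Col-0) ecotype that had grown for 7 days in the dark at 22 °C. Wild type (WT) was compared with the mutant siz1-2. SIZ1 is the main E3 ligase for SUMO in plants, and joins this small protein to target proteins. Each genotype was sampled directly after cutting, within 15 minutes (called 0 d), then after 4 days on callus-inducing medium (CIM), and after those 4 days on CIM followed by 4 or 6 days on shoot-inducing medium (SIM). Both media were based on Gamborg B5. For CIM, 2,4-D, a synthetic auxin, was added at 0.5 µg/ml and kinetin, a cytokinin, at 0.05 µg/ml. For SIM, IAA, the natural auxin, was added at 0.15 µg/ml and 2-IPA at 0.5 µg/ml. CIM incubation was under constant light, so that the first step changed light, medium and hormones together and these cannot be told apart. All 8 groups hold 3 libraries. The descriptions of replicates 2 and 3 at SIM 6 d in both genotypes exchange the days on the media, and the titles and sampling times were followed. The labels tie no library to a separate culture, so p-values measure the spread between these libraries, which may be technical.

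Libraries held 7979350 to 15591781 reads. Values are reads per 1000000 reads of the library total (rpm) of the isoform with the highest mean, and all 44 genes passed the filter on low values. As a check of the labels, isoform 1 of SIZ1 had 216 to 493 more reads than isoform 3 in each WT library, and in siz1-2 the difference was -1 to 0. Of the libraries, 4 stood apart from their groups. WT CIM replicate 2 and siz1-2 CIM replicate 3 had 499 and 480.5 rpm over 3 salicylic acid markers, against 22.7 to 26.5 in the other CIM libraries. WT 0 d replicate 1 had 706 rpm over 4 photosynthesis genes, against 6.35 and 6.72 in the other WT 0 d libraries. WT SIM 6 d replicate 2 had 2329.5 rpm over 4 heat response genes, against 78.1 and 83.3 in the other WT libraries of that stage. Counts of called genes that moved by over 1.5 times without these 4 libraries are given in both forms.

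A ribosome is built from ribosomal RNA and a large set of proteins, and a cell that is to grow or divide must first make more of both. In Arabidopsis nearly every one of these proteins has several gene copies, which are expressed together but not always in equal measure, and mutants of single copies often have pointed leaves, changed organ polarity or arrested embryos. Supply of the parts is tied to growth signals through the TOR kinase, whose target S6 kinase phosphorylates the 40S protein RPS6. Many of these genes carry short promoter elements called site II (TGGGCC or TGGGCT) and telo-box (AAACCCTA).

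The upstream sequences of 8 genes are shown because these genes carry the paralog differences described further on. They are RPL24A, AT3G53890 (family S21) and AT5G59240 (family S8), each with a paralog, and the L10 pair RPL10A and RPL10C. Each sequence ends directly before the annotated gene start and runs 5′ to 3′ on the gene's strand, up to 250 bases, cut where a neighbouring gene begins. They come from the RefSeq genome of TAIR10.1, and capitals mark site II and telo-box letters on either strand.
RPL24A, chr2:15352014-15352263, - strand: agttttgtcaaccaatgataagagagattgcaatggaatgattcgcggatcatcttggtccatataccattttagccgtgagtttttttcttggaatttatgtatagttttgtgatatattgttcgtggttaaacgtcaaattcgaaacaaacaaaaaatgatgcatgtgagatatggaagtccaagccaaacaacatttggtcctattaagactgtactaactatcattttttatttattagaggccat
RPL24B, chr3:19662026-19662194, - strand: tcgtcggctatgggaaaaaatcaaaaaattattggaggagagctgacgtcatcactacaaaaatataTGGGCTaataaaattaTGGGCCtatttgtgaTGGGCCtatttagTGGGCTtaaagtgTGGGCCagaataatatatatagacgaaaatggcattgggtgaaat
AT3G53890, chr3:19956450-19956589, - strand: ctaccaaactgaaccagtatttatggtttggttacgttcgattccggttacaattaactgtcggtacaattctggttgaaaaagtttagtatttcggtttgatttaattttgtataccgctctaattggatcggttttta
AT5G27700, chr5:9808514-9808763, - strand: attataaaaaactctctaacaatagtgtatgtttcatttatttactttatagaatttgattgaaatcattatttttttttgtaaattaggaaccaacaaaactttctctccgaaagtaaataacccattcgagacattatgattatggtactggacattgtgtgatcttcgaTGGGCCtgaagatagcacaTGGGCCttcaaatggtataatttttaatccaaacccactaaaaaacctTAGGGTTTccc
AT5G59240, chr5:23903768-23903871, - strand: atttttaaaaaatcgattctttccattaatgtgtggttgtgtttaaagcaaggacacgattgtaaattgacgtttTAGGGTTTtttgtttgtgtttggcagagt
AT5G20290, chr5:6853107-6853298, - strand: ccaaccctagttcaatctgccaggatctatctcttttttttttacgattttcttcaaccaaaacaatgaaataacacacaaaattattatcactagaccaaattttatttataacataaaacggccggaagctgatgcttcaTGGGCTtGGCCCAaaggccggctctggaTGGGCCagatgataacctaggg
RPL10A, chr1:4887934-4888113, + strand: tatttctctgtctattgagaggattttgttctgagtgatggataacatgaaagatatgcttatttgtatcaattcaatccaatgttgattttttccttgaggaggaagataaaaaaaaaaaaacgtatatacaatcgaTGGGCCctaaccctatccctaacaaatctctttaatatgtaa
RPL10C, chr1:24838840-24839089, + strand: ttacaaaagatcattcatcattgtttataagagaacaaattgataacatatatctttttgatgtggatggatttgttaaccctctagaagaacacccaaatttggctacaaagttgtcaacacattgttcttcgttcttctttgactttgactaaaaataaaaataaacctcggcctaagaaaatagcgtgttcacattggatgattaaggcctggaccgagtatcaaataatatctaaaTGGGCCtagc

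RPL24A and AT3G53890 had neither motif in the 250 bases before the gene start, of which 110 lie in a neighbouring gene for AT3G53890 and are not shown, whereas their paralogs RPL24B and AT5G27700 had site II, and AT5G27700 had a telo-box as well. AT5G59240 had a telo-box and no site II, and its paralog AT5G20290 had site II and no telo-box. Both L10 genes shown had site II. Over all 44 genes, 29 (65.9%) had site II within 250 bases on either strand, against 20.1% of the same windows of the 24925 protein-coding genes measured. A telo-box lay in 8 of 44 (18.2%), against 4.19% of those windows. The letters of the site II and telo-box motifs share no core, although TGGGCC can overlap its own reverse complement. The median rise from 0 d to CIM in WT was 1.95 on the log2 scale in the 29 genes with site II and 2.06 in the 15 without, given without a test.

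Levels differed widely between genes. Per kilobase of transcript and averaged over the 24 libraries, the highest were AT5G20290 of family S8 (1034 rpm per kb), PGY2 of family L9 (709.9) and EMB2296 of family L8 (670.0). PGY2 (PIGGYBACK2) is known from mutants with changed leaf polarity, and EMB2296 from embryo arrest. The lowest was RPSAB of family Sa, at 10.8 rpm per kb. AT5G20290 in WT measured 489, 452 and 456 rpm at 0 d, 1937, 1649 and 1818 on CIM, 1247, 1302 and 1203 at 4 d on SIM and 1075, 1146 and 1063 at 6 d. AT5G20290 in siz1-2 measured 432, 429.8 and 566 rpm at 0 d, 1758, 1803 and 1819 on CIM, 1168, 1197 and 1148 at 4 d on SIM and 1177, 1177 and 1206 at 6 d. EMB2296 in WT measured 328, 297 and 289 rpm at 0 d, 1394, 1089.9 and 1289 on CIM, 871, 869.8 and 741 at 4 d on SIM and 723, 789 and 743 at 6 d. EMB2296 in siz1-2 measured 250.3, 243 and 205 rpm at 0 d, 1389.5, 1324 and 1347 on CIM, 758, 793 and 758 at 4 d on SIM and 830.4, 803 and 801 at 6 d. PGY2 in WT measured 441, 399.5 and 418 rpm at 0 d, 1182, 904 and 1135 on CIM, 782, 758 and 639.7 at 4 d on SIM and 641, 743 and 665 at 6 d. PGY2 in siz1-2 measured 322, 323 and 229 rpm at 0 d, 1141, 1105 and 1060.1 on CIM, 666, 651 and 676 at 4 d on SIM and 741, 725 and 708 at 6 d. In each of these 3 genes every CIM library lay above every SIM library and every 0 d library of its genotype. PGY2 shares 54.2% of its 50-base windows with another gene, chiefly its paralog AT1G33120. The authors' counting may have given a shared read to either gene or to both, so their values may not be independent.

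All 44 genes rose from 0 d to CIM and all 44 fell from CIM to SIM, in both genotypes. Their summed level in WT was 7586 ± 357 rpm at 0 d (SD, n = 3), 28564 ± 2773 on CIM, 19276 ± 1257 at 4 d on SIM and 18068 ± 1111 at 6 d. In siz1-2 the sums were 6174 ± 356, 29809 ± 205, 18550.4 ± 97.4 and 19499 ± 478 rpm. The 44 genes thus summed to 0.576% to 3.10% of a library's reads. A read shared by PGY2 and AT1G33120 may count for both genes in that sum. The sum is given without a test. WT CIM replicate 2, a library with high salicylic acid markers, had the lowest sum of the 6 CIM libraries, 25528 rpm. The other such library, siz1-2 CIM replicate 3, summed to 29619 rpm, close to the 29782 and 30026 rpm of the other siz1-2 CIM libraries.

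**Figure D1:**
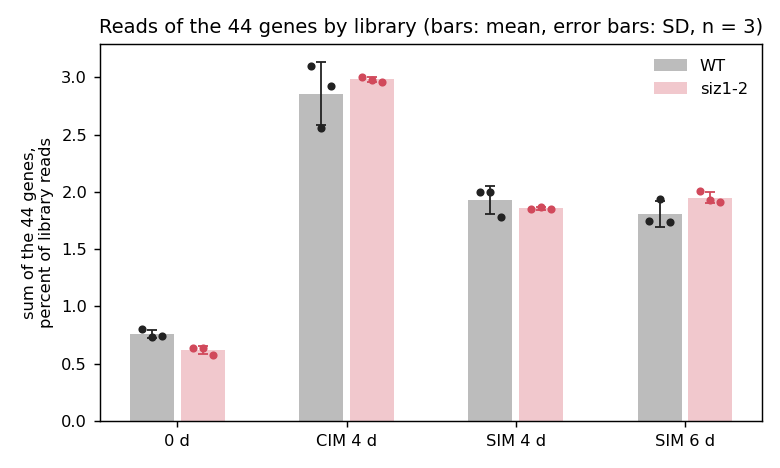
Sum of the 44 genes in percent of library reads (y axis, from 0) for the 4 stages (x axis) in WT (grey) and siz1-2 (red); bars are means, error bars SD and points the 3 libraries of a group. The 0 d libraries lie between 0.576% and 0.800%, and the CIM libraries between 2.55% and 3.10%.

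Between 0 d and CIM the median log2 change of the 44 genes was 1.98 in WT and 2.35 in siz1-2, by limma on log2(rpm + 1). The test called 44 of 44 genes higher in WT, where 49.1% of all 20361 genes tested were called higher, and 44 of 44 in siz1-2, where 49.6% were. At that step 26.6% and 27.3% of all genes were called lower. A call is a Benjamini-Hochberg adjusted p below 0.05 over all genes tested. The median of all genes itself moved by 0.35 in WT and 0.37 in siz1-2 on this scale, so that the 44 genes stood 1.63 and 1.98 above it. TMM scaling took the all-gene medians to 0.04 and 0.05 and left the 44 genes 1.58 and 1.94 above them. It also changed the split of all calls in WT from 10003 higher and 5417 lower to 7694 and 7304, and in siz1-2 from 10109 and 5560 to 7948 and 7547. Because these genes are abundant, the values were also rescaled to the reads outside them, which moved the WT median of the 44 genes from 1.98 to 2.01. RNA from whole explants cannot tell more cells of a growing type from more RNA per cell. Over 5 dividing-cell markers the sum went from 129 to 146 rpm in the WT 0 d libraries to 269 to 295 on CIM, and the part of dividing cells in the ribosomal change was not tested.

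By subunit, the WT medians of the rise were 1.96 for the 22 60S genes, 1.95 for the 16 40S genes and 2.102 for the 6 stalk genes. In siz1-2 they were 2.42, 2.24 and 2.42. From CIM to SIM 4 d the medians of all 44 fell by 0.59 in WT and by 0.73 in siz1-2, and 44 of 44 were called lower in each genotype. Of all genes tested, 24.5% were called lower at that step in WT and 25.1% in siz1-2, and 21.2% and 28.8% higher. Between 4 and 6 d on SIM limma called 0 of the 44 genes in either genotype, where 0.589% and 0.629% of all genes were called. At an unadjusted p under 0.05 that step had 2 lower genes in WT and 0 in siz1-2, and edgeR and DESeq2 called 0. At 6 d on SIM 43 genes in WT and 44 in siz1-2 were still called above 0 d, with medians of 1.31 and 1.72, against 49.7% and 53% of all genes, and 24.9% and 24.4% of all genes were below 0 d. TMM scaling moved the split of all calls there too, in WT from 10115 higher and 5070 lower to 7688 and 6882, and in siz1-2 from 10801 and 4969 to 8219 and 7054.

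**Figure D2:**
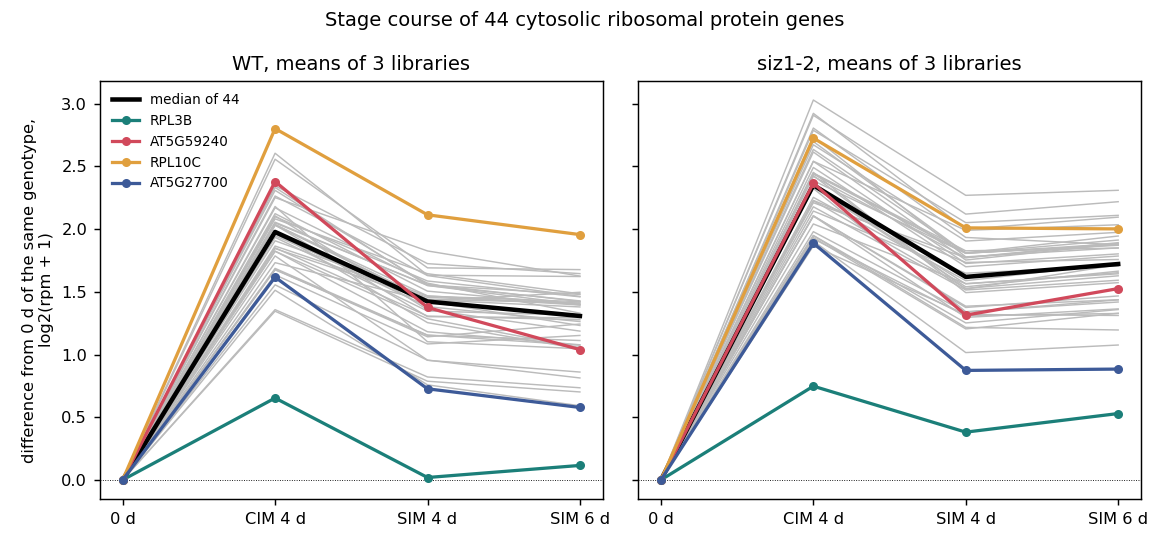
Stage course of the 44 genes in WT (left) and siz1-2 (right): each line is a gene's mean of 3 libraries on log2(rpm + 1), as the difference from 0 d of the same genotype (y axis), over the 4 stages (x axis); black is the median gene and colours mark 4 genes. The median reaches 1.98 in WT and 2.35 in siz1-2 on CIM, RPL10C runs above it and RPL3B and AT5G27700 below it.

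On the log2(rpm + 1) scale of the test, large-subunit genes set both ends of the WT range. RPL10C, a paralog of family L10, whose protein joins the 60S subunit late in its assembly, had the largest rise on that scale. The added 1 shrinks the rises of low genes, so the order at the top depends on it. The 40S gene AT5G59240 went from 2.32, 2.27 and 1.86 rpm at 0 d to 15.3, 15.5 and 15.3 on CIM in WT. RPL10C in WT measured 137, 124 and 134 rpm at 0 d, 916, 958 and 901 on CIM, 589.7, 582 and 549.6 at 4 d on SIM and 519, 511 and 512 at 6 d. RPL10C in siz1-2 measured 142, 162 and 173 rpm at 0 d, 954, 999.9 and 1230.3 on CIM, 626, 678 and 622 at 4 d on SIM and 669, 611 and 636 at 6 d. All CIM libraries of both genotypes lay above all 0 d libraries, and the WT rise was 6.97-fold (2.80 ± 0.09 (SE), adjusted p = 8.76e-16). Next came AT4G10450 of family L9 at 2.61 ± 0.13 (SE) and RPL10B at 2.56 ± 0.14 (SE), adjusted p = 3.11e-13 and 2.21e-12 by limma. AT4G10450 in WT measured 31.4, 28.9 and 30.1 rpm at 0 d, 189, 182 and 194 on CIM, 102, 99.8 and 85.3 at 4 d on SIM and 89.01, 109 and 87.5 at 6 d. AT4G10450 in siz1-2 measured 25.9, 32.9 and 19.9 rpm at 0 d, 199.8, 201 and 204 on CIM, 111, 105 and 102 at 4 d on SIM and 127, 110.1 and 104 at 6 d. RPL10B in WT measured 7.70, 7.07 and 8.97 rpm at 0 d, 57.2, 46.5 and 50.6 on CIM, 28.6, 29.96 and 24.7 at 4 d on SIM and 25.98, 28.6 and 27.6 at 6 d. RPL10B in siz1-2 measured 8.22, 7.78 and 4.44 rpm at 0 d, 53.1, 50.6 and 53.04 on CIM, 27.4, 27.9 and 28.99 at 4 d on SIM and 26.8, 25.9 and 28.1 at 6 d. Apart from the 3 genes with the largest and the 3 with the smallest rises, the WT rises lay between 1.51 (AT3G59540) and 2.38 (AT5G59240). AT4G10450 and RPL10B are low paralogs of their families, and in both the 0 d and CIM libraries did not overlap.

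RPL3B, of the family at the peptidyl transferase centre of the 60S subunit, rose least. RPL3B in WT measured 58.7, 56.4 and 50.1 rpm at 0 d, 98.6, 72.6 and 91.99 on CIM, 60.03, 56.9 and 50.6 at 4 d on SIM and 51.1, 66.02 and 62.8 at 6 d. RPL3B in siz1-2 measured 44.2, 42.2 and 47.3 rpm at 0 d, 87.7, 84.4 and 57.9 on CIM, 54.97, 56.8 and 63.4 at 4 d on SIM and 68.8, 62.04 and 63.4 at 6 d. Its WT libraries overlap between 0 d and both SIM stages, and its WT change on CIM was 1.57-fold (0.65 ± 0.14 (SE), adjusted p = 2.59e-04). That call was lost with TMM scaling (log2 change 0.30, adjusted p = 0.0537), with median-of-ratios scaling and with DESeq2, by which 43 of 44 genes were called. RPL3B was also the 1 gene not called above 0 d at SIM 6 d in WT (0.12 ± 0.14 (SE), adjusted p = 0.460). Its paralog RPL3A went from 492 ± 24.6 to 1579 ± 134 rpm (mean ± SD, n = 3) in WT, 3.20-fold.

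The other small rises were those of PGY2 and AT1G33120, the near-identical pair of family L9. PGY2 changed by 1.35 ± 0.12 (SE), adjusted p = 2.34e-09, and AT1G33120 by 1.36 ± 0.10 (SE), adjusted p = 1.75e-10, in WT. AT1G33120 in WT measured 376, 349 and 359 rpm at 0 d, 1018, 809.6 and 971 on CIM, 669, 673 and 581 at 4 d on SIM and 565, 648 and 597 at 6 d. AT1G33120 in siz1-2 measured 269.8, 277 and 207 rpm at 0 d, 982, 977 and 937 on CIM, 595, 587 and 602 at 4 d on SIM and 662, 636 and 624 at 6 d. Neither gene's 0 d libraries overlapped its CIM libraries. AT3G59540 of family L38 was among the 3 genes closest to their 0 d level at SIM 6 d in WT, with RPL3B and AT5G27700. AT3G59540 in WT measured 119, 107 and 113 rpm at 0 d, 376, 259 and 349 on CIM, 219.7, 196 and 164 at 4 d on SIM and 166, 189.9 and 158 at 6 d. AT3G59540 in siz1-2 measured 104, 108 and 62.4 rpm at 0 d, 353, 328 and 327 on CIM, 184, 173 and 186 at 4 d on SIM and 187, 192 and 186 at 6 d. In WT it stood 0.59 ± 0.16 (SE), adjusted p = 0.00249 above 0 d at SIM 6 d. With TMM scaling, median-of-ratios scaling, edgeR and DESeq2 this gene and AT5G27700 lost that call, which left 41 genes.

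The correlation of a gene's 8 group means with the median course of the 44 genes, a description over 8 points that share their libraries, was lowest for RPL3B (0.851) and AT5G59240 (0.875). AT5G27700 (0.937), AT3G53890 (0.955), AT3G59540 (0.964) and RPL24A (0.977) followed, and every other gene was at 0.979 or above. Other genes with known mutants kept close to the shared course. RPL5A, whose 60S protein binds 5S ribosomal RNA, went from 308 ± 15.1 to 1124 ± 42.9 rpm in WT between 0 d and CIM. RPS5A, whose promoter is active in dividing cells, went from 223 ± 12.8 to 976 ± 92.5, and its paralog RPS5B from 79.9 ± 5.89 to 294 ± 52.9. The 40S genes RPS18A and RPS13A, known from mutants with pointed first leaves, rose 4.96-fold and 4.30-fold in WT. AT3G09200, which encodes the stalk base protein P0, rose 4.09-fold, and AT1G01100, which encodes P1, 4.50-fold.

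Within families the shares of the paralogs shifted to a measurable degree. The share of a paralog in its family's reads per kb was compared between consecutive stages by a two-sided exact permutation test within genotype, over 12 libraries at a time. Such a test cannot give a p below 0.005, and 37 of the 82 tests were at that value. The p-values are unadjusted, and in a family of 2 both genes give the same test. The median shift was 2.47 percentage points from 0 d to CIM and 1.13 from CIM to SIM 4 d. From 4 to 6 d on SIM no shift was above 2.07 points.

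Averaged over the genotypes, family L10 moved most. RPL10A, the most expressed of the 3 L10 genes, made up 54.8 to 71.2% of the family at 0 d and 46.5 to 54.7% on CIM, a shift of -13.5 points (exact permutation p = 0.005). RPL10C took up most of it, from 26.9 to 43.8% at 0 d to 42.4 to 50.8% on CIM (exact permutation p = 0.01), and here the ranges overlapped. The lowest CIM shares of RPL10A, 48.1 and 46.5%, were in WT replicate 2 and siz1-2 replicate 3, the libraries with high salicylic acid markers. The other CIM libraries had 52.7 to 54.7%. The share test was not repeated without libraries that stood apart. The mean share of RPL10A went from 69.8 ± 1.27% to 51.5 ± 2.999% in WT and from 60.1 ± 4.94% to 51.4 ± 4.32% in siz1-2 (SD, n = 3). RPL10A in WT measured 326, 317 and 309 rpm at 0 d, 1105, 909 and 1041 on CIM, 735, 741 and 649 at 4 d on SIM and 650.3, 748 and 664 at 6 d. RPL10A in siz1-2 measured 269, 257 and 210.1 rpm at 0 d, 1193, 1156 and 1091 on CIM, 699, 724 and 693 at 4 d on SIM and 799.7, 748 and 722 at 6 d. RPL10A therefore rose with the other genes while its share fell.

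In family S21, a small protein of the 40S subunit, AT3G53890 gained share from AT5G27700, from a mean of 35.6% at 0 d to 47.6% on CIM over both genotypes (exact permutation p = 0.005). In WT the share went from 43.3 ± 2.54% to 50.95 ± 3.38%, and in siz1-2, where this family moved more than L10, from 27.96 ± 4.13% to 44.3 ± 1.52% (SD, n = 3). The difference between the genotypes in these shifts was not tested. AT5G27700 in WT measured 118, 92.1 and 108 rpm at 0 d, 386, 240.5 and 371 on CIM, 218, 174 and 142 at 4 d on SIM and 158, 163 and 152 at 6 d. AT5G27700 in siz1-2 measured 107, 119 and 63.7 rpm at 0 d, 376, 339.8 and 332 on CIM, 178, 161 and 177 at 4 d on SIM and 174, 177 and 169 at 6 d. AT5G27700 fell back on SIM to within 1.49-fold of 0 d in WT (0.58 ± 0.19 (SE), adjusted p = 0.0112). RPS18A rose from 26.6 to 34.5% of family S18, and AT5G47700 fell from 36.8 to 30.3% of the P1 genes (exact permutation p = 0.005 for each). RPL3B fell from 10.6 to 12.4% of family L3 at 0 d to 3.59 to 6.99% on CIM (exact permutation p = 0.005), with no overlap. Its lowest CIM shares, 4.77 and 3.59%, were in WT replicate 2 and siz1-2 replicate 3.

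Of the 4 stages, 0 d had the most genotype calls, and 3 paralogs were called at more than 1 stage. At 0 d, 14 of the 44 genes were called lower in siz1-2 and 1 higher, by limma, where 6.6% of all genes tested were called lower and 4.37% higher. The median difference was -0.30 on the log2 scale over the 44 genes and -0.07 over all genes. In 32 of 44 genes all 3 siz1-2 libraries lay below all 3 WT libraries, 72.7% against 19.8% of all genes. With median-of-ratios scaling the split of all calls went from 889 higher and 1344 lower to 1138 and 996, while 13 of the 44 genes stayed lower and 2 were higher. The 14 genes were 10 of the 22 60S genes, 3 of the 16 40S genes and 1 of the 6 stalk genes. Over 4 heat response markers the siz1-2 0 d libraries summed to 682 to 1469 rpm and the WT ones to 111 to 180.3 rpm, with HSP101 above 0 in both, and the part of this difference in the ribosomal genes was not tested. Without WT 0 d replicate 1, the library with photosynthesis markers, 10 genes were called lower.

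**Figure D3:**
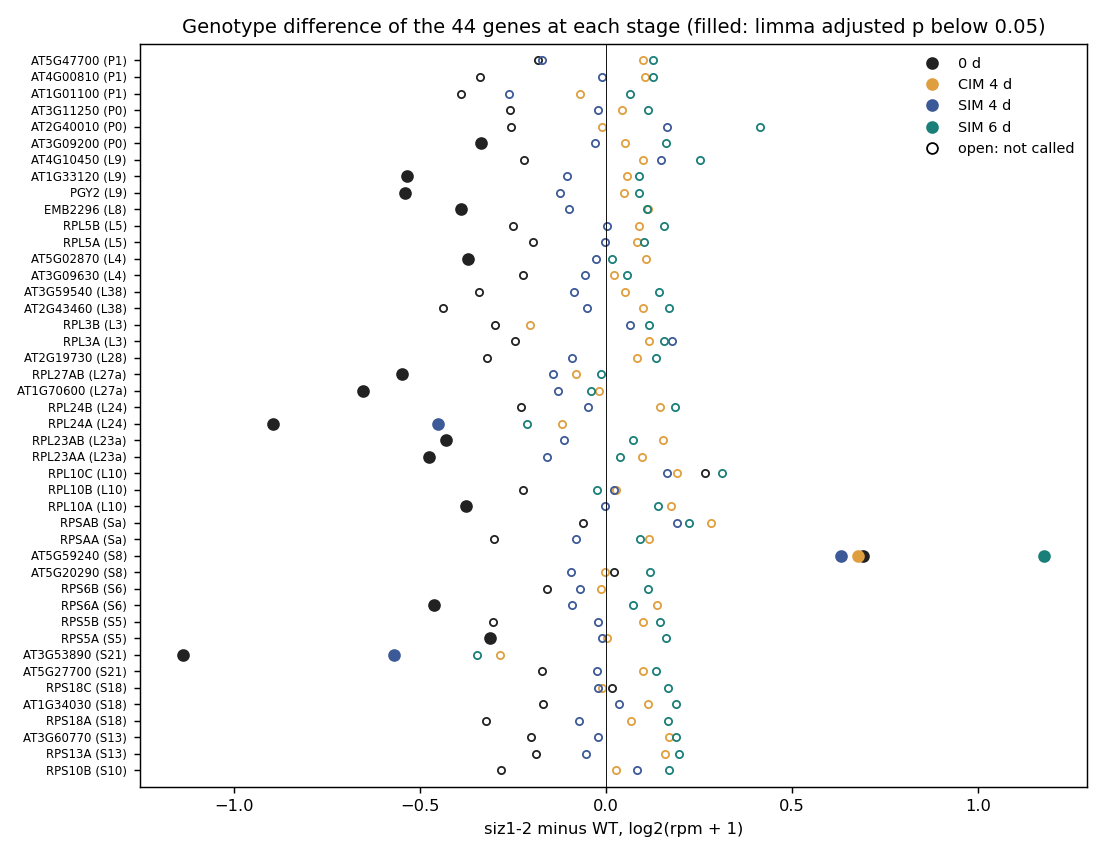
Difference siz1-2 minus WT on log2(rpm + 1) (x axis) of each of the 44 genes (y axis, family in brackets) at 0 d (black), CIM 4 d (orange), SIM 4 d (blue) and SIM 6 d (green); filled points were called by limma. Most 0 d points lie left of 0, with AT3G53890 at -1.14 and RPL24A at -0.90 farthest, and AT5G59240 lies right of 0 at every stage.

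AT3G53890, of family S21, had the largest genotype difference at 0 d. AT3G53890 in WT measured 90.4, 77.9 and 73.99 rpm at 0 d, 376, 292 and 351 on CIM, 265, 257 and 197 at 4 d on SIM and 209, 236 and 210.3 at 6 d. AT3G53890 in siz1-2 measured 39.99, 38.2 and 30.5 rpm at 0 d, 286, 262 and 283 on CIM, 157, 167 and 156 at 4 d on SIM and 178, 171 and 165 at 6 d. The WT and siz1-2 libraries did not overlap at any stage. At 0 d siz1-2 was 2.20-fold lower (-1.14 ± 0.12 (SE), adjusted p = 1.96e-06), and at SIM 4 d 1.48-fold lower (-0.57 ± 0.12 (SE), adjusted p = 0.0124). On CIM and at SIM 6 d the differences of -0.29 ± 0.12 (SE) and -0.35 ± 0.12 (SE) were not called, adjusted p = 0.299 and 0.142 by limma. Its mean difference over the 4 stages was -0.59 ± 0.06 (SE), adjusted p = 1.05e-06. Its paralog AT5G27700 differed by -0.17 ± 0.19 (SE), adjusted p = 0.646 at 0 d. In the family, AT3G53890 held 43.3 ± 2.54% in WT and 27.96 ± 4.13% in siz1-2 at 0 d (SD, n = 3), and 58.1 ± 1.05% and 49.7 ± 0.698% at SIM 6 d. These genotype shares are given without a test.

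RPL24A followed the same pattern in the 60S subunit, where its family sits at the interface to the 40S subunit. RPL24A in WT measured 78.2, 72.3 and 66.3 rpm at 0 d, 368, 315 and 361 on CIM, 252, 276 and 247 at 4 d on SIM and 214, 247 and 215 at 6 d. RPL24A in siz1-2 measured 34.2, 35.6 and 45.9 rpm at 0 d, 319.9, 329 and 311 on CIM, 178, 200.3 and 187 at 4 d on SIM and 197, 187 and 198 at 6 d. At 0 d, SIM 4 d and SIM 6 d the genotypes did not overlap, and on CIM they did. The differences were -0.90 ± 0.10 (SE), adjusted p = 4.16e-06 at 0 d and -0.45 ± 0.10 (SE), adjusted p = 0.0165 at SIM 4 d, against -0.12 ± 0.10 (SE), adjusted p = 0.728 on CIM and -0.21 ± 0.10 (SE), adjusted p = 0.349 at SIM 6 d. RPL24B, known as STV1 and required for translation of messages with upstream reading frames, differed by -0.23 ± 0.09 (SE), adjusted p = 0.109 at 0 d. The siz1-2 libraries of RPL24B at 0 d, 132 to 137 rpm, still lay below its WT libraries, 149 to 167 rpm. RPL24A held 28.8 ± 0.592% of its family in WT and 20.2 ± 2.46% in siz1-2 at 0 d. When 1 library at a time was left out, the SIM 4 d call of RPL24A needed WT replicates 1 and 2 and siz1-2 replicates 1 and 3 (adjusted p without one of them up to 0.0919), and that of AT3G53890 needed WT replicates 1 and 2 and siz1-2 replicate 1 (adjusted p up to 0.0895). Their 0 d calls held in every such fit.

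AT5G59240 ran the other way, and so, by less, did RPL10C on the mean of the 4 stages. AT5G59240 is the low paralog of family S8, at 11.9 rpm per kb against 1034 for AT5G20290. AT5G59240 in WT measured 2.32, 2.27 and 1.86 rpm at 0 d, 15.3, 15.5 and 15.3 on CIM, 8.31, 7.11 and 6.17 at 4 d on SIM and 5.25, 6.08 and 5.08 at 6 d. AT5G59240 in siz1-2 measured 3.76, 2.99 and 5.88 rpm at 0 d, 21.3, 28.9 and 25.9 on CIM, 11.1, 12.2 and 11.5 at 4 d on SIM and 13.5, 11.8 and 15.8 at 6 d. Every siz1-2 library lay above every WT library of its stage. The differences were 0.69 ± 0.16 (SE), adjusted p = 0.00900 at 0 d, 0.68 ± 0.16 (SE), adjusted p = 0.0306 on CIM, 0.63 ± 0.16 (SE), adjusted p = 0.0477 at SIM 4 d and 1.18 ± 0.16 (SE), adjusted p = 2.78e-04 at SIM 6 d. The single-stage calls before SIM 6 d rested on the setting. The 0 d call was lost without siz1-2 replicate 3 (adjusted p = 0.0603), the CIM call without each CIM library but siz1-2 replicate 1 (up to adjusted p = 0.147), and the SIM 4 d call without any of its 6 libraries (up to adjusted p = 0.175). The mean over the 4 stages was 0.79 ± 0.08 (SE), adjusted p = 1.37e-06. AT5G20290, the other S8 gene, differed by 0.01 ± 0.04 (SE), adjusted p = 0.933 over the 4 stages. At SIM 6 d AT5G59240 made up 0.620 ± 0.0337% of the family in WT and 1.42 ± 0.186% in siz1-2.

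**Figure D4:**
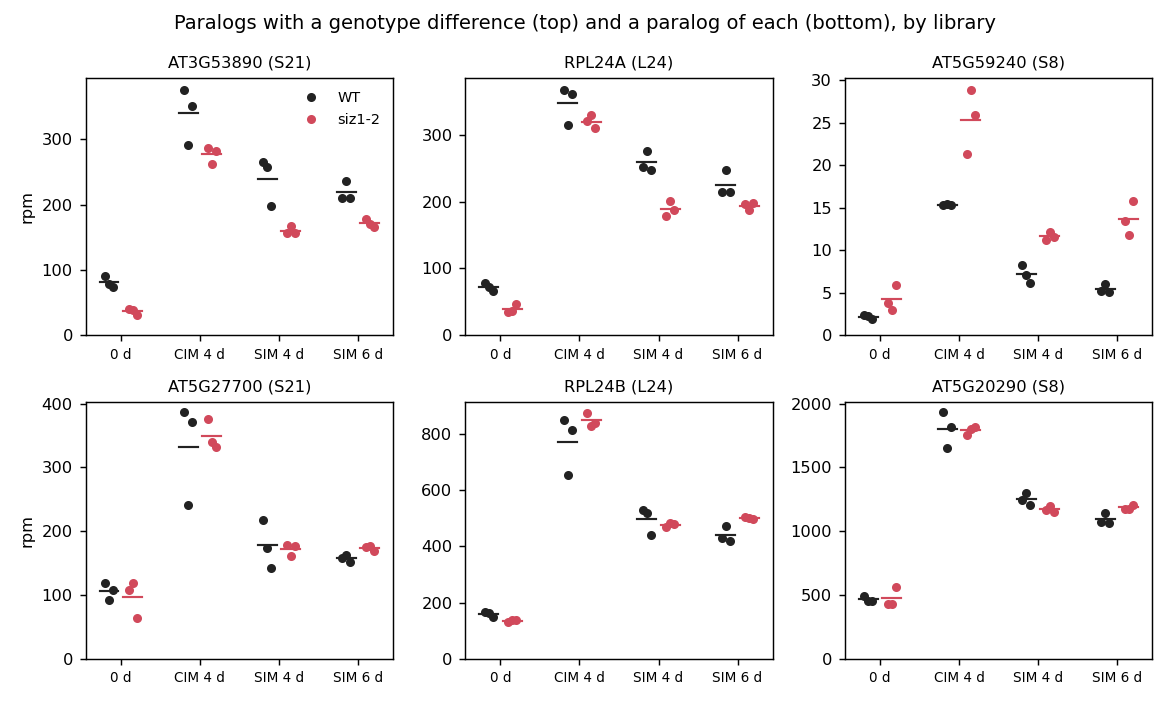
Level in rpm (y axis, from 0) of AT3G53890, RPL24A and AT5G59240 (top) and of a paralog of each (bottom) at the 4 stages (x axis), in WT (black) and siz1-2 (red); points are libraries and bars group means. The siz1-2 points of AT3G53890 are below and those of AT5G59240 above the WT points at every stage. At 0 d the genotypes overlap for AT5G27700 and AT5G20290 but not for RPL24B.

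The remaining 0 d calls were smaller. RPL23AA, at the exit of the peptide tunnel, differed by -0.48 ± 0.07 (SE), adjusted p = 1.11e-04. RPL23AA in WT measured 197, 197 and 178 rpm at 0 d, 854, 777 and 826 on CIM, 591, 588 and 542 at 4 d on SIM and 513, 572 and 494 at 6 d. RPL23AA in siz1-2 measured 142, 133 and 135 rpm at 0 d, 866, 893 and 867 on CIM, 512, 528 and 501 at 4 d on SIM and 557, 526 and 535 at 6 d. RPL27AB and AT1G70600, both of family L27a, differed by -0.55 ± 0.09 (SE), adjusted p = 6.69e-04, and -0.65 ± 0.12 (SE), adjusted p = 0.00117. RPL27AB in WT measured 142, 131 and 138 rpm at 0 d, 605, 482 and 547 on CIM, 402, 387 and 321 at 4 d on SIM and 325, 369 and 334 at 6 d. RPL27AB in siz1-2 measured 100.3, 98.5 and 82.1 rpm at 0 d, 507, 529 and 503 on CIM, 337, 338 and 326 at 4 d on SIM and 339, 344 and 333 at 6 d. AT1G70600 in WT measured 211, 204 and 204 rpm at 0 d, 884, 669 and 794 on CIM, 638, 587 and 499.6 at 4 d on SIM and 539.7, 625 and 506 at 6 d. AT1G70600 in siz1-2 measured 152, 140.1 and 105 rpm at 0 d, 781, 771 and 747 on CIM, 518, 509 and 541 at 4 d on SIM and 532, 551 and 533 at 6 d. In all 3 genes the siz1-2 libraries lay below the WT libraries at 0 d, and from CIM on limma called no difference at a single stage, while DESeq2 called RPL23AA at SIM 4 d. RPL23AA in siz1-2 lay above WT on CIM and below it at SIM 4 d, and the other genes overlapped from CIM on.

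RPS6A, a paralog of the S6 kinase target, differed by -0.46 ± 0.10 (SE), adjusted p = 0.00450 at 0 d, and RPS6B by -0.16 ± 0.07 (SE), adjusted p = 0.140. RPS6A in WT measured 226, 222 and 194 rpm at 0 d, 860.4, 657 and 805 on CIM, 593, 601 and 549 at 4 d on SIM and 545, 632 and 534 at 6 d. RPS6A in siz1-2 measured 168, 146 and 149.7 rpm at 0 d, 900.4, 887 and 757 on CIM, 532, 544 and 558 at 4 d on SIM and 609, 595 and 589.8 at 6 d. PGY2 and AT1G33120, which share sequence and may share reads, differed by -0.54 ± 0.12 (SE), adjusted p = 0.00512, and -0.54 ± 0.10 (SE), adjusted p = 0.00146. EMB2296, RPL10A, RPL23AB, AT5G02870, AT3G09200 and RPS5A made up the rest, at -0.31 to -0.43. With 1 library at a time left out, the calls of EMB2296, RPL10A and AT3G09200 were each lost in 2 of 6 limma fits. That of RPL23AB was lost in 1 and that of RPS5A in 4. When only the groups compared were fitted, AT5G02870, RPL10A, AT3G09200 and RPS5A were not called. RPS5A (-0.31 ± 0.10 (SE), adjusted p = 0.0403) was not called with TMM scaling, median-of-ratios scaling, edgeR or DESeq2, each of which called RPL10C higher instead (0.27 ± 0.09 (SE), adjusted p = 0.0584 by limma). Without the 4 libraries that stood apart RPS5A was not called either (adjusted p = 0.106 by limma), and RPL10C (higher) and AT2G43460 (lower) were. Of the 14 lower genes 8 had site II and 6 had neither motif, and of the other 30 genes 21 had site II and 6 neither.

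At the later stages few genes were called. On CIM AT5G59240 alone was called higher by limma, where 1.3% of all genes were, and 0 genes lower, where 0.904% were. At SIM 4 d AT5G59240 was higher and AT3G53890 and RPL24A lower, against 1.1% and 1.1% of all genes. At SIM 6 d AT5G59240 was higher, against 1.42%, and 0 genes were lower, against 1.59%. In 20 of 44 genes all siz1-2 libraries lay above all WT libraries at SIM 6 d (45.5%, against 15.8% of all genes), with a median difference of 0.13. Averaged over the 4 stages, RPL10C (0.23 ± 0.04 (SE), adjusted p = 0.00112) and AT5G59240 were higher, where 5.96% of all genes were. AT3G53890, RPL24A, RPL27AB, AT1G70600 and RPL23AA were lower, where 6.51% were. Without the 4 libraries that stood apart RPSAB and AT1G01100 were called as well.

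The rise from 0 d to CIM was larger in siz1-2 than in WT for 10 of the 44 genes and smaller for 0, by the interaction term of the limma model, where 1.64% of all genes were called larger and 1.51% smaller. The term was above 0 in 40 of 44 genes, with a median of 0.37 against 0.04 over all genes. Among 29 plastid ribosomal protein genes it was above 0 in 28, with a median of 0.42, and 0 were called. The term shares the 0 d libraries with the genotype difference at 0 d and is no separate evidence of it. AT3G53890 (0.85 ± 0.17 (SE), adjusted p = 0.00667), RPL24A (0.78 ± 0.14 (SE), adjusted p = 0.00315) and RPL23AA (0.57 ± 0.10 (SE), adjusted p = 0.00200) were among them. The count was 6 by edgeR, 14 by DESeq2, 3 without the 4 libraries that stood apart (RPL23AA, RPL24A and RPS6A, with AT3G53890 at adjusted p = 0.0506 by limma) and 3 when only the 4 groups compared were fitted. Leaving out 1 library at a time gave 3 to 13, with 3 without WT 0 d replicate 1 or siz1-2 CIM replicate 2, 4 without siz1-2 0 d replicate 3, 5 without WT 0 d replicate 2 or siz1-2 CIM replicate 1, and 6 without WT CIM replicate 2 or 3. For the step from CIM to SIM 4 d limma called 0 of 44, edgeR 0 and DESeq2 1, with 2 lower at an unadjusted p under 0.05, where 0.211% of all genes were called. For the step from SIM 4 d to SIM 6 d limma, edgeR and DESeq2 called 0, with 1 higher at an unadjusted p under 0.05, where 0.00982% of all genes were called.

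Genes of the wider pathway were counted for context. Of 44 ribosome assembly factors, 40 rose and 1 fell from 0 d to CIM in WT, with a median of 1.72; 90.9% were thus higher, against 49.1% of all genes. NHP2 changed by 2.71 ± 0.08 (SE, adjusted p = 1.65e-16), FIB2, the fibrillarin that methylates ribosomal RNA, by 2.97 ± 0.09 (SE, adjusted p = 6.85e-16), and CBF5, the pseudouridine synthase, by 2.55 ± 0.09 (SE, adjusted p = 5.42e-15). From CIM to SIM 4 d 37 of them fell (84.1%, against 24.5% of all genes) and 1 rose, median -0.50. Of 28 translation factors 25 (89.3%) rose and 1 fell on CIM, with a median of 0.91. The 3 RACK1 genes, whose protein sits on the 40S subunit, changed by 1.72 ± 0.08 (SE, adjusted p = 3.70e-13) (RACK1A), 2.07 ± 0.11 (SE, adjusted p = 2.20e-12) (RACK1B) and 2.05 ± 0.10 (SE, adjusted p = 4.19e-13) (RACK1C). From CIM to SIM 4 d 19 translation factors (67.9%) fell and 0 rose.

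Plastid ribosomal protein genes in WT were called higher from 0 d to CIM about as often as all genes, and were not called lower from CIM to SIM 4 d. Of 29 genes 15 rose and 1, PRPL3 (-0.97 ± 0.17 (SE, adjusted p = 2.82e-05)), fell from 0 d to CIM in WT, with a median of 0.64, so that 51.7% were higher against 49.1% of all genes. In siz1-2 22 of the 29 rose at that step (75.9%, against 49.6% of all genes) and 1 fell, with a median of 0.89. From CIM to SIM 4 d in WT 13 rose (44.8%, against 21.2% of all genes) and 0 fell, with a median of 0.48, where the cytosolic genes had -0.59. Over 4 photosynthesis genes the WT libraries went from 10.9 to 73.3 rpm on CIM to 383 to 878 at SIM 4 d, whose part was not tested. Of 7 genes of the TOR pathway and its growth regulators, 2 rose from 0 d to CIM in WT, LST8-1 (1.05 ± 0.09 (SE, adjusted p = 2.93e-09)) and ANAC082 (0.25 ± 0.09 (SE, adjusted p = 0.0122)). The S6 kinase genes S6K2 (-1.22 ± 0.15 (SE, adjusted p = 2.14e-07)) and S6K1 (-0.51 ± 0.10 (SE, adjusted p = 1.61e-04)) and RAPTOR1B (-0.41 ± 0.16 (SE, adjusted p = 0.0245)) fell.

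**Figure D5:**
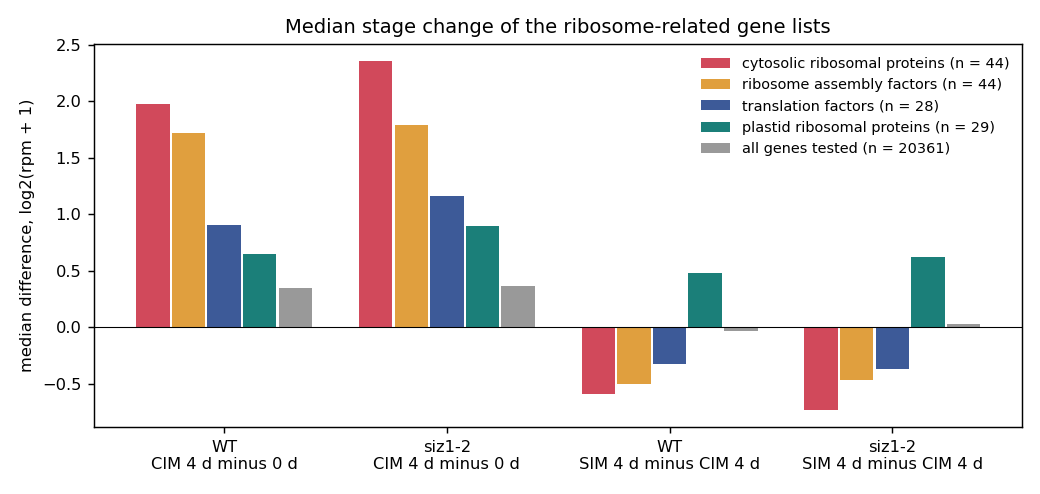
Median log2 change (y axis) of the 44 cytosolic ribosomal protein genes, of 3 lists of related genes and of all genes tested, for the steps from 0 d to CIM and from CIM to SIM 4 d in WT and siz1-2 (x axis); bars carry no error because they are medians over genes. The cytosolic genes rise and then fall back, and the plastid ribosomal protein genes are above 0 at both steps.

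Between the genotypes at 0 d, 4 assembly factors were lower in siz1-2 and 0 higher, among them FIB2 at -0.70 ± 0.09 (SE, adjusted p = 3.45e-05). Thus 9.09% of these factors were called lower, near the 6.6% of all genes. Of the translation factors 9 (32.1%) were lower and 2 higher, including EIF5A-1 at -0.66 ± 0.15 (SE, adjusted p = 0.00814) and EIF5A-3 at 1.16 ± 0.17 (SE, adjusted p = 1.25e-04), paralogs of an elongation factor that differed in opposite directions. Limma called 0 of the 29 plastid ribosomal protein genes. Only 2 of them lay above 0, and their median of -0.26 was near the -0.30 of the 44 genes. Of the TOR list, limma called S6K1 at 0.38 ± 0.10 (SE, adjusted p = 0.0205). A search of annotated product names for ribosomal protein family names ending in e found 54 further genes, of which 52 were tested. The search leaves out ribosomal proteins named otherwise. A family name alone does not show that a protein is part of the cytosolic ribosome. Of the 52 genes, 42 (80.8%) rose and 6 fell from 0 d to CIM in WT, with a median of 1.93. From CIM to SIM 4 d 46 (88.5%) fell and 0 rose. At 0 d 15 (28.8%) of them were lower and 1 higher in siz1-2, and the test is the one used for the 44 genes.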

How the data were processed

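Values were deposited by the authors as 1 signal value per isoform (33864 isoforms of 25960 genes). Reads were demultiplexed with bcl2fastq and mapped with Bowtie 1.2.1 to TAIR10, per the submitters' processing notes; the rule that gave a read to an isoform, and any use of strand, are not given in the sources used here. Each deposited signal value was a whole number of reads divided by 1 library total (100% of values within 0.001 of a whole read), so values are reads per 1000000 (rpm), not counts. The isoforms used here, 1 per gene, summed to 103% to 104% of the library total.

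Each gene was represented by the isoform with the highest mean. With limma 3.58.1 (R 4.3.3; trend, robust), 8 group means were fitted to log2(rpm + 1) for the 20361 genes at 1 rpm or more in at least 3 libraries (5599 genes were not tested), with 16 residual degrees of freedom. P-values were adjusted by the Benjamini-Hochberg method over all genes tested, and folds are on the log2(rpm + 1) scale. edgeR 4.0.16 and DESeq2 1.42.0 on recovered whole reads were alternatives, beside other scalings, filters and pseudocounts. The fits and the share test were tested on simulated data.

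Named genes were the 3 highest per kb, the 8 genotype calls of smallest adjusted p, the 6 least like the median course, the 3 largest and 3 smallest rises and the 4 largest share shifts; a few others were added for their known roles. From the related lists, called genes of small adjusted p were named. The genes and lists were chosen with earlier results of these data known. Depth limits low genes most: AT5G59240 rested on 71 reads over the 3 WT libraries at 0 d. Promoter windows come from RefSeq TAIR10.1, a build whose coordinates the deposited values do not use; 23 of 44 windows overlap another gene.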

Additional observations from a re-analysis of the deposited data

Results flagged for a closer look

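For 10 genes the rise from 0 d to CIM differed between the genotypes by the interaction term of the limma model, siz1-2 minus WT on log2(rpm + 1), each past the threshold of 0.05. The terms were 0.48 for AT5G02870 (adjusted p = 0.0243), 0.50 for EMB2296 (adjusted p = 0.0392), 0.59 for AT1G33120 (adjusted p = 0.026), 0.55 for RPL10A (adjusted p = 0.0243), 0.57 for RPL23AA (adjusted p = 0.00200), 0.58 for RPL23AB (adjusted p = 0.0328), 0.78 for RPL24A (adjusted p = 0.00315), 0.63 for AT1G70600 (adjusted p = 0.0458), 0.60 for RPS6A (adjusted p = 0.0225) and 0.85 for AT3G53890 (adjusted p = 0.00667). All 10 terms were above 0, as were those of 40 of the 44 genes. In each of these genes the siz1-2 level was lower at 0 d.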

How the results depend on the processing

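Of the 396 comparisons of a count of called genes with its value under another setting, 347 stayed within 1.5 times. Counts that were 0 in both are among the 347. The stage calls held at 41 to 44 of 44 genes in all fits. Genes higher in siz1-2 at 0 d numbered 2 in place of 1 with TMM scaling, median-of-ratios scaling, edgeR, DESeq2 and without the 4 libraries that stood apart, RPL10C being the gene added, and 0 when only the groups compared were fitted. On CIM the 1 higher gene became 0 without the 4 libraries and with only the groups compared. At SIM 4 d the 1 higher gene became 0 with TMM scaling, median-of-ratios scaling, edgeR, no filter, a pseudocount of 0.5, summed isoforms and only the groups compared, where the 2 lower genes became 1. At SIM 6 d 2 genes were higher without the 4 libraries, and DESeq2 called 1 lower in place of 0. The larger rises in siz1-2 numbered 6 in place of 10 with edgeR, 3 without the 4 libraries and 3 with only the groups compared; DESeq2 called 1 gene in place of 0 for the step from CIM to SIM 4 d. Leaving out 1 library at a time gave 0 to 2 higher genes at 0 d, 0 to 1 on CIM, 0 at SIM 4 d (0 to 2 lower) and 1 to 2 at SIM 6 d, and 3 to 13 larger rises. The causes were not tested.

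Replicate numbers did not pair the libraries: over 84 same-numbered pairs the correlation of deviations ran from -0.731 to 0.607, 18 were over 0.1, and a library was most like its own number in 27. With the replicate number as a block, the higher gene on CIM became 0 (AT5G59240, adjusted p = 0.0521), the one at SIM 4 d became 0, and the larger rises numbered 11. The 3 libraries per group limit which small differences can be called, and AT5G59240 is limited by its low reads.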
